A study of Mus musculus with 8 samples.

Results

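The genes described here are 48 cell cycle and proliferation genes, measured by RNA-seq in the colon of bone marrow chimeric mice. They were taken by name, as 22 genes of DNA synthesis (S phase), 23 genes of mitosis and 3 transcriptional regulators, on condition that their mean normalised count over the 8 libraries was at least 10. All 48 met it, out of 26008 genes listed and 19127 genes tested. The study asked whether enkephalins, the opioid peptides encoded by *Penk*, act on the uninflamed colon when immune cells make them. Recipients were male C57BL/6JRj wild-type mice, 7 weeks old, given a lethal dose of 1100 rad. Their graft was bone marrow of male penk-/- donors (B6.129-Penk-rstm1Pig/J, 9 to 11 weeks old) for the penk-/- chimeras, and of male wild-type donors of matched age for the penk+/+ chimeras. Colon was taken 18 to 21 weeks later, and each of the 4 penk-/- and 4 penk+/+ chimeras gave 1 library. In this model the donor genotype is carried by cells of the blood lineage, whereas the epithelium and the stroma are those of the wild-type host in both groups.

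In a dividing cell, cyclins switch on the cyclin-dependent kinases one after the other. Cyclin E opens S phase, in which licensed origins fire and the replication fork copies the genome, and cyclins A and B with Cdk1 then drive the cell into mitosis, where the spindle forms and the cell divides. E2F factors switch on S phase genes, and the MuvB complex with Mybl2 and Foxm1 switches on mitosis genes. In the colon, these genes are mostly expressed by the stem and transit-amplifying cells at the base of the epithelial crypts, besides dividing lymphocytes of the follicles.

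The promoters of the S phase and mitosis genes show a property that was not used to choose the genes. RefSeq promoter windows, from 250 bases before to 50 bases after the start site, were matched by symbol for 40 of the 48 genes (not for *Pole*, *Aurkb*, *Mcm4*, *Kif20a*, *Ccna2*, *Foxm1*, *Gins2* and *Tpx2*). They were searched on both strands for the letters of 3 motifs. These were the cell cycle homology region, or CHR (TTTGAA), E2F letters (TTCCCGC or TTGGCGC or TTCGCGC or TTGCCGC) and the CCAAT box, whose reverse strand can share bases with the E2F letters TTGGCGC. The CHR letters stood in the windows of 14 of 19 mitosis genes (73.7%) and of 3 of 19 S phase genes (15.8%). They stood in 17.9% of all 32851 promoter windows and in those of 15.2% of the genes tested. For the motifs, shares of the genes tested are taken over the 12710 that had a window. The E2F letters stood in the windows of 12 of 19 S phase genes (63.2%) and of 3 of 19 mitosis genes (15.8%), against 9.57% of all windows and 17.6% of the genes tested. The CCAAT box was found for 17 of 19 mitosis genes (89.5%) and 12 of 19 S phase genes (63.2%), against 37.4% of all windows and 41.8% of the genes tested. Among other genes of the same phases, CHR letters were held by 33 of 50 mitosis genes (66%) and E2F letters by 20 of 32 S phase genes (62.5%). The windows of *Ccne1*, *Tk1*, *Tyms*, *Birc5*, *Nusap1*, *E2f1* and *Mybl2* hold none of the 3 motifs.

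**Figure D1:**
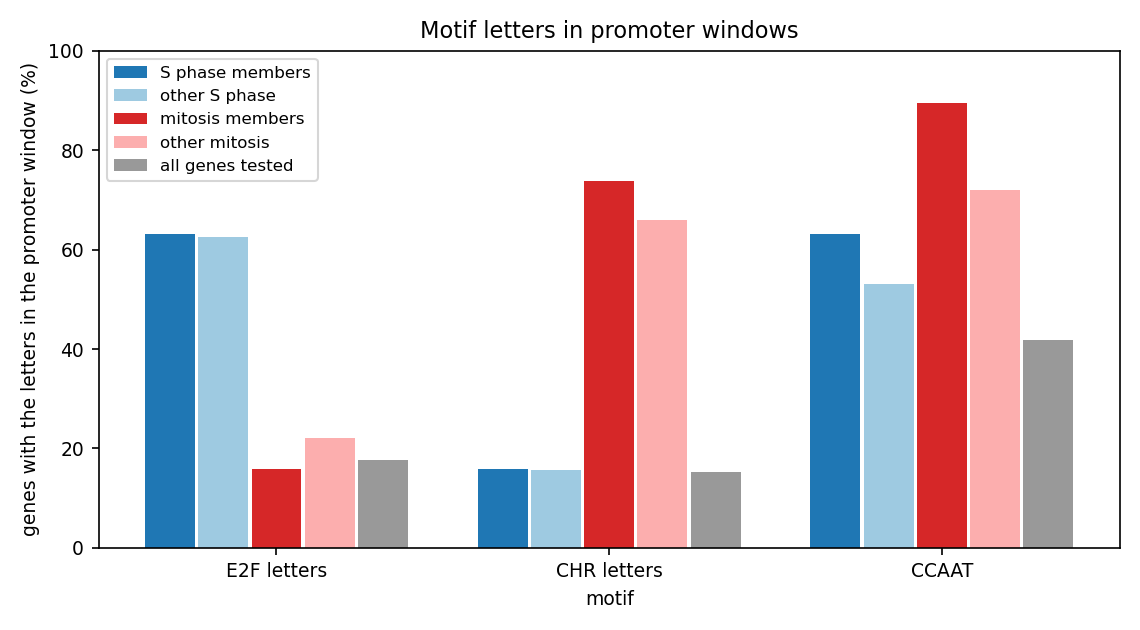
Share of genes (y axis, %) whose RefSeq promoter window holds the E2F letters, the CHR letters or the CCAAT box (x axis), for the S phase and mitosis genes, for other genes of the same phases and for all genes tested. Each share is taken over the genes that had a window. The E2F letters are held by 63.2% of the S phase genes and 15.8% of the mitosis genes, and the CHR letters by 15.8% and 73.7% of them.

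Promoter bases of 3 mitosis and 3 S phase genes are printed to show these letters in place, 5′ to 3′ on the strand of the gene, with the motif letters of either strand in capitals. Each sequence is the stretch of the 250 bases before the RefSeq start that lies in no exon of the GENCODE M39 annotation. The windows come from the RefSeq table of build GRCm38.p6 and were placed in GRCm39 by an exact match of all their bases. *Cdk1* (chr10:69188773-69188992, minus strand) shows CHR, CCAAT and E2F letters, and *Top2a* (chr11:98915063-98915265, minus strand) and *Ccnb2* (chr9:70328875-70329086, minus strand) show CHR and CCAAT letters. A further CHR match in each of their windows lies outside the printed stretch. Counted from the RefSeq start, it begins at -15 in *Cdk1*, -23 in *Top2a* and 4 in *Ccnb2*. *Mcm5* (chr8:75835887-75836136, plus strand) shows E2F and CCAAT letters, and *Mcm6* (chr1:128287517-128287692, minus strand) and *Pola1* (chrX:92675814-92676011, minus strand) show E2F letters. Other motif letters of the windows, among them the CCAAT boxes of *Mcm6* and *Pola1*, also lie outside the printed stretches. The bases of *Cdk1* lie within the span of the gene in GENCODE, which has a transcript that starts further upstream.
Cdk1: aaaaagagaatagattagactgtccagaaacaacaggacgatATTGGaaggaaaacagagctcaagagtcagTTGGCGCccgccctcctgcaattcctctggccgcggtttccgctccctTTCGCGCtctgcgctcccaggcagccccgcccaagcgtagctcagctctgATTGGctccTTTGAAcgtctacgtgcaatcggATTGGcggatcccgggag
Top2a: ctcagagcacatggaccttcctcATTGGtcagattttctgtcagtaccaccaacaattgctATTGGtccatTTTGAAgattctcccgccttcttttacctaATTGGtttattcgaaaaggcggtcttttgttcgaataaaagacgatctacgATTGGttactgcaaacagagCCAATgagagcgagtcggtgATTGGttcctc
Ccnb2: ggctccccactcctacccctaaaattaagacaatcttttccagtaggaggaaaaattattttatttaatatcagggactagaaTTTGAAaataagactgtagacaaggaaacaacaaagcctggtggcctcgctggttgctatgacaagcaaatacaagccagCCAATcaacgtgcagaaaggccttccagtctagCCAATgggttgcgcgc
Mcm5: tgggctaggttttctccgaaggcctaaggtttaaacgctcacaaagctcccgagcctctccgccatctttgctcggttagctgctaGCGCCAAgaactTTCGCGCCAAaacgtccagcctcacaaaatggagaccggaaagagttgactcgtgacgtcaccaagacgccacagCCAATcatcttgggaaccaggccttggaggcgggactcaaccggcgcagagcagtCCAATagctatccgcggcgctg
Mcm6: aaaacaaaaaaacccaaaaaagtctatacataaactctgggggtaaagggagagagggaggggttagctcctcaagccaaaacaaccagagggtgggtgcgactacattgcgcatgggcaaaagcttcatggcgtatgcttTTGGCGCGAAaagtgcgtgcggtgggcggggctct
Pola1: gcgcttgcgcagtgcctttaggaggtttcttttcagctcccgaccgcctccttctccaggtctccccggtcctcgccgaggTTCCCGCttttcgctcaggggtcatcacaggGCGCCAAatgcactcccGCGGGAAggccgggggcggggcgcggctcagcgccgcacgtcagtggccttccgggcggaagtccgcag

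The 8 libraries held between 33.1 M and 50.7 M reads, computed from the smallest step of the deposited values, which is taken to be 1 read. For penk-/- chimera 1 the step was 1.01, so close to 1 that its number of reads is less sure. *Penk* was at 453 to 616 normalised counts in penk-/- and 473 to 636 in penk+/+ chimeras, and since cells of the host keep an intact *Penk*, this does not check the genotype of the grafted cells. The 10 epithelial markers, *Epcam* and *Cdh1* among them, were present in every library. These 2 mark epithelium in general. The list also holds the intestinal transcription factors *Cdx1*, at 5725 to 7394 normalised counts, and *Cdx2*, at 1022 to 1963. Markers of prostate and accessory glands were present as well. *Pbsn*, which encodes the prostate protein probasin, was at 105658 normalised counts in penk-/- chimera 3 and 111024 in penk+/+ chimera 4, at 0 in penk-/- chimera 1 and penk+/+ chimera 3, and between 2398 and 13425 in the other libraries. The results are therefore also given without the 2 libraries with the most *Pbsn*.

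Levels of different genes can be compared only per length of their exons. *Pcna*, which encodes the sliding clamp of the DNA polymerases, had the highest mean level over the 8 libraries (943 normalised counts per kb), followed by *Plk1* (831), *Mki67* (608), *Mcm6* (502) and *Top2a* (445). Their lowest mean levels were those of *Fen1* (4.02 normalised counts per kb), *Pole* (38.3) and *Ccne1* (40.7). Among the genes, *Gins2* shares 67.3% of its exon length with genes on the opposite strand, *Fen1* 66.0%, *Kif20a* 61.5%, *Rrm2* 43.3% and *Aurka* 38.7%. Whether the authors counted by strand is not given in the sources used here. The counts of these genes may therefore include reads of their neighbours or lack reads shared with them, which was not tested.

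Between genotypes, the log2 fold change was above 0, that is higher in penk-/- chimeras, for all 23 mitosis genes and for 19 of 22 S phase genes. On the scale of normalised counts the penk-/- mean was the higher one for 23 and 18 of them, the gene that differs being *Mcm7* (1937 and 1958, log2 fold change 0.0068). These differences were small and mostly within the spread between mice, and none of them passed the test. With limma, 0 of the 48 genes had an adjusted p below 0.05, as had 0.0% of all genes tested. The paper, which used DESeq2 on the same libraries, did report a few genes of the whole table as differentially expressed. The 0.0% therefore holds for limma on these values. At an unadjusted p below 0.05, 10 of the 48 genes (20.8%) were higher in penk-/- chimeras and 0 were lower, against 4.3% of all genes tested on the higher and 5.33% on the lower side. Of these 10, 9 were mitosis genes and 1 was the S phase gene *Ccne1*. The fold change was above 0 for 45 of the 48 genes, against 51.1% of all genes tested. The genotypes did not overlap for 1 gene, *Ccne1*, which was higher in penk-/- chimeras, whereas 2.89% of all genes tested were without overlap on the higher side and 2.74% on the lower side. The median log2 fold change was 0.08 over the S phase genes, 0.27 over the mitosis genes and 0.10 over the regulators, against 0.0051 over all genes tested.

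The number of genes at an unadjusted p below 0.05 rested on single mice. It was 2 (4.17%) without penk-/- chimera 2 and 2 (4.17%) without penk+/+ chimera 1, where 3.37% and 3.40% of all genes tested were higher at that level, so that the 48 genes were then near the background. It was 3 (6.25%, against 4.76% of all genes) without penk+/+ chimera 4, 6 (12.5%, against 3.31%) without penk+/+ chimera 2 and 23 (47.9%, against 4.15%) without penk+/+ chimera 3. Without penk-/- chimera 1 it was 7 (14.6%, against 4.52%), without chimera 3 of that group 13 (27.1%, against 3.71%) and without chimera 4 of that group 8 (16.7%, against 3.12%). Without the 2 libraries with the most *Pbsn* it was 4 (8.33%, against 4.36% of all genes). In each of these fits all the genes counted were higher in penk-/- chimeras.

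**Figure D2:**
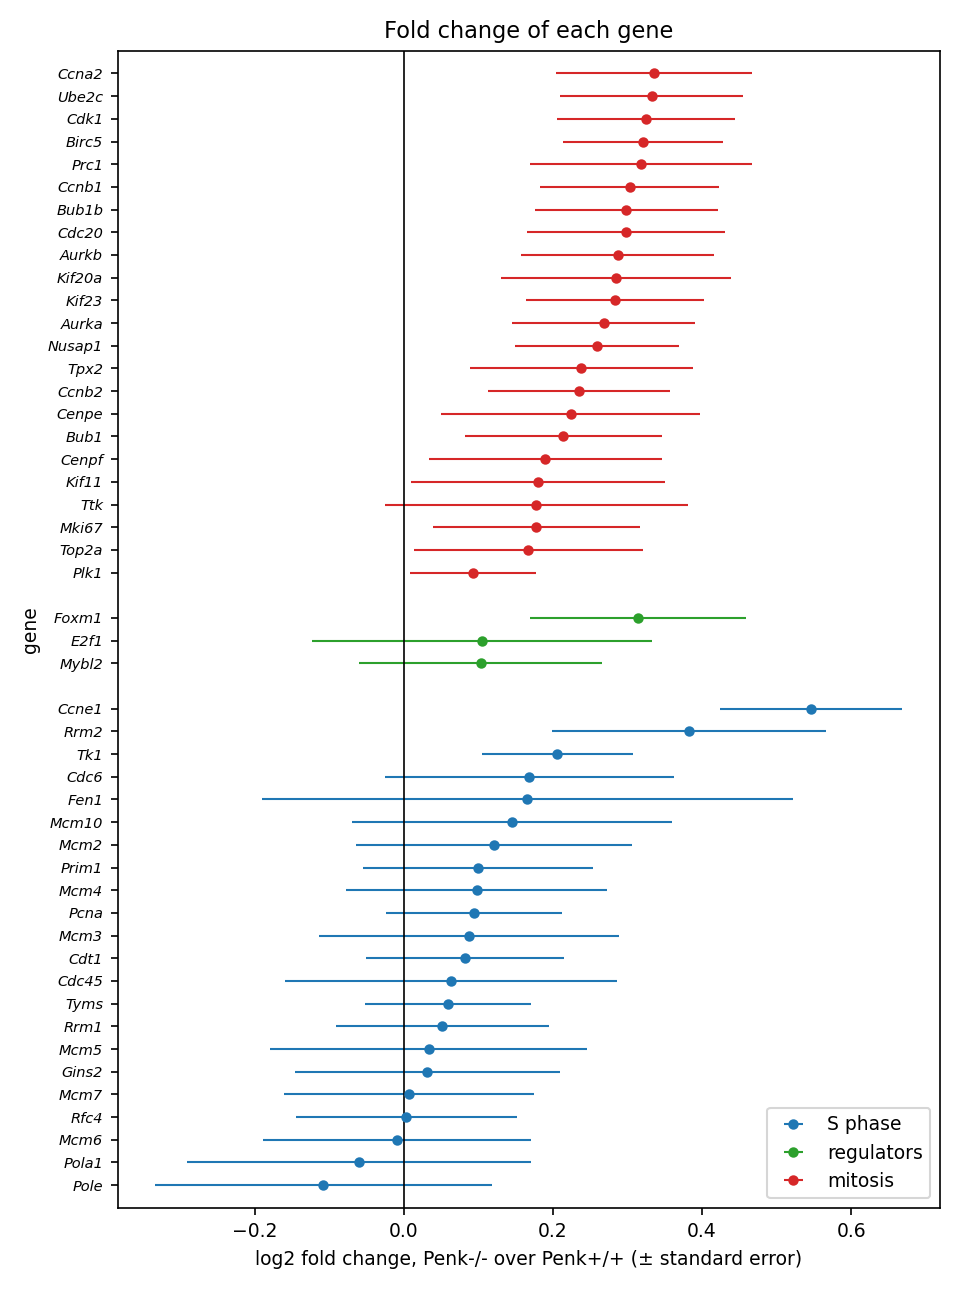
Log2 fold change of each gene between penk-/- and penk+/+ chimeras (x axis, points, with bars of ± 1 standard error from limma), with the genes on the y axis by group and by size. The mitosis genes lie between 0.09 and 0.34 and the S phase genes between -0.11 and 0.55.

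Within S phase, *Ccne1* came first. It encodes cyclin E1, which activates Cdk2 for entry into S phase, and it was the only gene of the 48 without overlap between genotypes. *Ccne1* (chr7:37797404-37808264, GRCm39, minus strand) was at 167, 182, 183 and 168 normalised counts in penk-/- chimeras 1 to 4 and at 133, 119, 127 and 101 in penk+/+ chimeras 1 to 4. The lowest penk-/- chimera stood above the highest penk+/+ chimera. Its log2 fold change was 0.55 (standard error, SE, 0.12, 95% confidence interval 0.27 to 0.82), with p = 0.0286 by the exact two-sided permutation test, the smallest that 4 against 4 mice can give, and an adjusted p of 0.339 with limma. Its companion *Ccne2*, which encodes cyclin E2, was at 381, 443, 393 and 386 normalised counts in penk-/- and 270, 295, 414 and 297 in penk+/+ chimeras, so that only penk+/+ chimera 3 reached the penk-/- range (log2 fold change 0.34 ± 0.13 SE).

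The 8 genes of origin licensing and the replicative helicase had a median log2 fold change of 0.08, and none of them was at an unadjusted p below 0.05. They encode the loading factors Cdc6 and Cdt1 and the 6 subunits of the Mcm ring. *Mcm2* was at 1145, 1591, 1329 and 1328 normalised counts in penk-/- and 966, 1501, 1633 and 971 in penk+/+ chimeras. The penk+/+ chimeras lay on both sides of the penk-/- chimeras, and the log2 fold change was 0.12 ± 0.19 SE. The fold changes of the other licensing genes ran from -0.01 for *Mcm6* to 0.17 for *Cdc6* on the log2 scale. The interval of *Mcm6*, whose promoter is printed above, was -0.41 to 0.39, so that a difference in either direction of the size seen for *Ccna2* is not excluded by these data.

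The 9 genes of the replication fork gave the same picture, with a median log2 fold change of 0.06 and 0 genes at an unadjusted p below 0.05. *Pcna* was at 2052, 2578, 2333 and 2360 normalised counts in penk-/- and 2154, 2404, 2501 and 1732 in penk+/+ chimeras. Only penk+/+ chimera 4 stood clearly lower (log2 fold change 0.09 ± 0.12 SE). *Pole* and *Pola1*, which encode the catalytic subunits of the leading strand polymerase and of the primer-making polymerase, had the lowest fold changes of the S phase group. *Pole* was at 323, 603, 422 and 439 normalised counts in penk-/- and 457, 528, 622 and 325 in penk+/+ chimeras (log2 fold change -0.11 ± 0.23 SE). *Pola1* was at 617, 947, 698 and 656 normalised counts in penk-/- and 714, 943, 992 and 473 in penk+/+ chimeras (log2 fold change -0.06 ± 0.23 SE). Both genotypes held a high and a low mouse for these genes, and the groups overlapped over most of their range. *Fen1*, a flap endonuclease of the lagging strand, was at 13.5 normalised counts (SD 3.73, n = 4) in the penk-/- and 12.5 (SD 5.62, n = 4) in the penk+/+ group. Its mean of 13.0 normalised counts over the 8 libraries was the nearest of all 48 genes to the limit of 10.

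Among the 4 genes that supply nucleotides, the fold changes were less even, with a log2 fold change of 0.38 for *Rrm2*, 0.21 for *Tk1*, 0.06 for *Tyms* and 0.05 for *Rrm1*. *Rrm2*, the small subunit of ribonucleotide reductase that limits its activity, was at 655, 896, 756 and 777 normalised counts in penk-/- and 482, 716, 774 and 447 in penk+/+ chimeras. Chimeras 1 and 4 of the penk+/+ group were below every penk-/- chimera, and the other 2 were within the penk-/- range (standard error 0.18, exact two-sided permutation test, p = 0.171). *Tk1*, the thymidine kinase of the salvage pathway, was at 1213 normalised counts (SD 114) in the penk-/- and 1053 (SD 125) in the penk+/+ group, with n = 4 each (exact two-sided permutation test, p = 0.143). *Rrm1*, the large subunit of the same reductase, was at 2897 ± 331 and 2827 ± 579.

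Of the mitosis genes, the 6 that encode the mitotic cyclins, Cdk1 and the anaphase machinery had the highest median log2 fold change, 0.31. Of these 6 genes, 5 (83.3%) were higher at an unadjusted p below 0.05, against 4.3% of all genes tested. The kinase *Cdk1* (chr10:69170976-69236595, GRCm39, minus strand) was at 997, 1144, 912 and 981 normalised counts in penk-/- and 726, 882, 954 and 678 in penk+/+ chimeras. Only penk+/+ chimera 3 reached the penk-/- range. Its log2 fold change was 0.32 (standard error 0.12, 95% confidence interval 0.06 to 0.59), with p = 0.0571 by the exact two-sided permutation test and an adjusted p of 0.452 with limma. *Ccna2*, the cyclin of S phase and early mitosis, had the highest fold change of the group, with 1429, 1798, 1379 and 1283 normalised counts in penk-/- and 1084, 1156, 1430 and 1001 in penk+/+ chimeras (log2 fold change 0.34 ± 0.13 SE). *Ccnb1*, the cyclin that brings Cdk1 to the start of mitosis, was at 865, 971, 762 and 762 normalised counts in penk-/- and 636, 614, 838 and 643 in penk+/+ chimeras (log2 fold change 0.30 ± 0.12 SE). In both genes, again, 3 penk+/+ chimeras lay below all penk-/- chimeras and chimera 3 lay among them.

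*Ube2c* and *Cdc20* encode the ubiquitin-conjugating enzyme and an activator of the anaphase-promoting complex, which destroys cyclin B at the end of mitosis. *Ube2c* was at 906, 1013, 787 and 767 normalised counts in penk-/- and 586, 654, 819 and 701 in penk+/+ chimeras (log2 fold change 0.33 ± 0.12 SE). *Cdc20* was at 699, 883, 704 and 704 normalised counts in penk-/- and 513, 586, 772 and 577 in penk+/+ chimeras (log2 fold change 0.30 ± 0.13 SE). For both, penk+/+ chimera 3 alone overlapped the penk-/- chimeras. The exact two-sided permutation test gave p = 0.0857 for *Ube2c* and p = 0.114 for *Cdc20*.

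The 7 genes of mitotic kinases and of the spindle checkpoint had a median log2 fold change of 0.27. Among them, 2 (28.6%), *Birc5* and *Bub1b*, were higher at an unadjusted p below 0.05, against 4.3% of all genes tested. *Birc5*, which encodes survivin, a subunit of the chromosomal passenger complex, was at 749, 896, 716 and 739 normalised counts in penk-/- and 584, 621, 731 and 550 in penk+/+ chimeras. Only penk+/+ chimera 3 passed the lowest penk-/- chimera (log2 fold change 0.32 ± 0.11 SE, exact two-sided permutation test, p = 0.0571). *Bub1b*, which encodes the checkpoint protein BubR1, was at 1002, 1306, 1007 and 1005 normalised counts in penk-/- and 783, 902, 1052 and 779 in penk+/+ chimeras (log2 fold change 0.30 ± 0.12 SE). Its penk-/- chimeras were even but for chimera 2. *Plk1*, the polo-like kinase, had the lowest fold change of all mitosis genes, with 2620, 2665, 2084 and 2445 normalised counts in penk-/- and 2417, 2138, 2351 and 2267 in penk+/+ chimeras (log2 fold change 0.09 ± 0.08 SE), and its genotypes overlapped. The Aurora kinase genes *Aurka* and *Aurkb* had log2 fold changes of 0.27 and 0.29, and their adjusted p with limma was 0.532 and 0.525.

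The 8 genes of the spindle, the kinetochore and cytokinesis had a median log2 fold change of 0.25, between 0.18 for *Kif11* and 0.32 for *Prc1*. *Kif23*, a kinesin of the midzone, was at 1270, 1320, 1064 and 1091 normalised counts in penk-/- and 915, 982, 1191 and 829 in penk+/+ chimeras (log2 fold change 0.28 ± 0.12 SE). *Nusap1*, a spindle-associated protein, was at 1233, 1302, 1114 and 1173 normalised counts in penk-/- and 932, 1111, 1175 and 839 in penk+/+ chimeras (log2 fold change 0.26 ± 0.11 SE). These were the 2 of the 8 (25%) higher at an unadjusted p below 0.05, against 4.3% of all genes tested. In both, penk+/+ chimera 3 lay among the penk-/- chimeras. The adjusted p with limma was 0.496 for *Kif23* and 0.498 for *Nusap1*.

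The usual markers of proliferation had lower fold changes than the mitotic cyclins, a difference that was not tested. *Mki67*, which encodes the Ki-67 antigen, was at 6084, 8079, 5988 and 6288 normalised counts in penk-/- and 5354, 5693, 7493 and 4951 in penk+/+ chimeras. *Top2a*, the topoisomerase that untangles chromosomes, was at 3977, 5332, 3897 and 3905 normalised counts in penk-/- and 3484, 3961, 4882 and 3015 in penk+/+ chimeras. The highest mouse of each genotype, penk-/- chimera 2 and penk+/+ chimera 3, stood above the rest of its group in both genes. The log2 fold change was 0.18 for *Mki67* (standard error 0.14, 95% confidence interval -0.13 to 0.49) and 0.17 for *Top2a* (standard error 0.15, 95% confidence interval -0.18 to 0.51).

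Of the regulators, *Foxm1*, the activator of mitosis genes, was at 560, 762, 581 and 580 normalised counts in penk-/- and 406, 567, 585 and 448 in penk+/+ chimeras (log2 fold change 0.31 ± 0.15 SE, exact two-sided permutation test, p = 0.2). *E2f1*, the activator of S phase genes, was at 185, 331, 257 and 268 normalised counts in penk-/- and 230, 255, 327 and 165 in penk+/+ chimeras (log2 fold change 0.10 ± 0.23 SE). *Mybl2*, the partner of the MuvB complex, was at 284, 388, 279 and 322 normalised counts in penk-/- and 281, 326, 359 and 226 in penk+/+ chimeras (log2 fold change 0.10 ± 0.16 SE). The genotypes overlapped for all 3, over most of their range for *E2f1* and *Mybl2*.

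**Figure D3:**
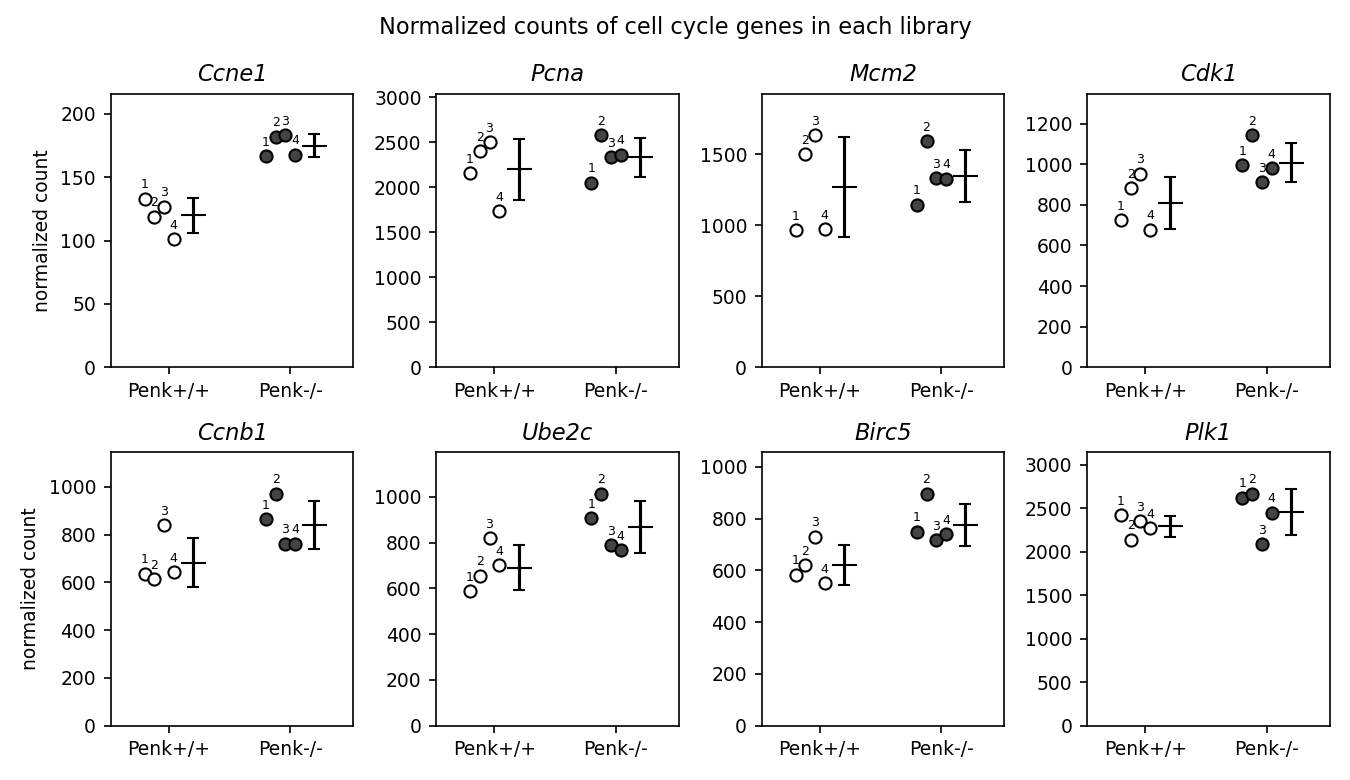
Normalised counts (y axis, from 0) of 8 of the genes in each penk+/+ (open) and penk-/- (filled) chimera, numbered by replicate, with the mean and the SD of 4 mice as a cross and a bar. The genotypes separate for *Ccne1*, penk+/+ chimera 3 lies among the penk-/- chimeras for *Cdk1*, *Ccnb1*, *Ube2c* and *Birc5*, and the ranges overlap broadly for *Pcna*, *Mcm2* and *Plk1*.

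Much of the spread was shared by the genes and followed single mice. Of the 48 genes, 37 were highest in penk-/- chimera 2 and 10 in penk+/+ chimera 3, and 32 were lowest in penk+/+ chimera 4. All 48 were above their own mean in penk-/- chimera 2 and 0 in penk+/+ chimera 4. In penk-/- chimera 1 the groups of genes parted, since 21 of 23 mitosis genes and 3 of 22 S phase genes were above their own mean. The opposite was seen in penk+/+ chimera 2, with 3 of 23 mitosis and 20 of 22 S phase genes above their mean. Of these mice, penk+/+ chimera 4 is one of the 2 with the most *Pbsn*. In the other, penk-/- chimera 3, 28 of the 48 genes were above their own mean. A link between *Pbsn* and the levels of these genes was not tested.

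**Figure D4:**
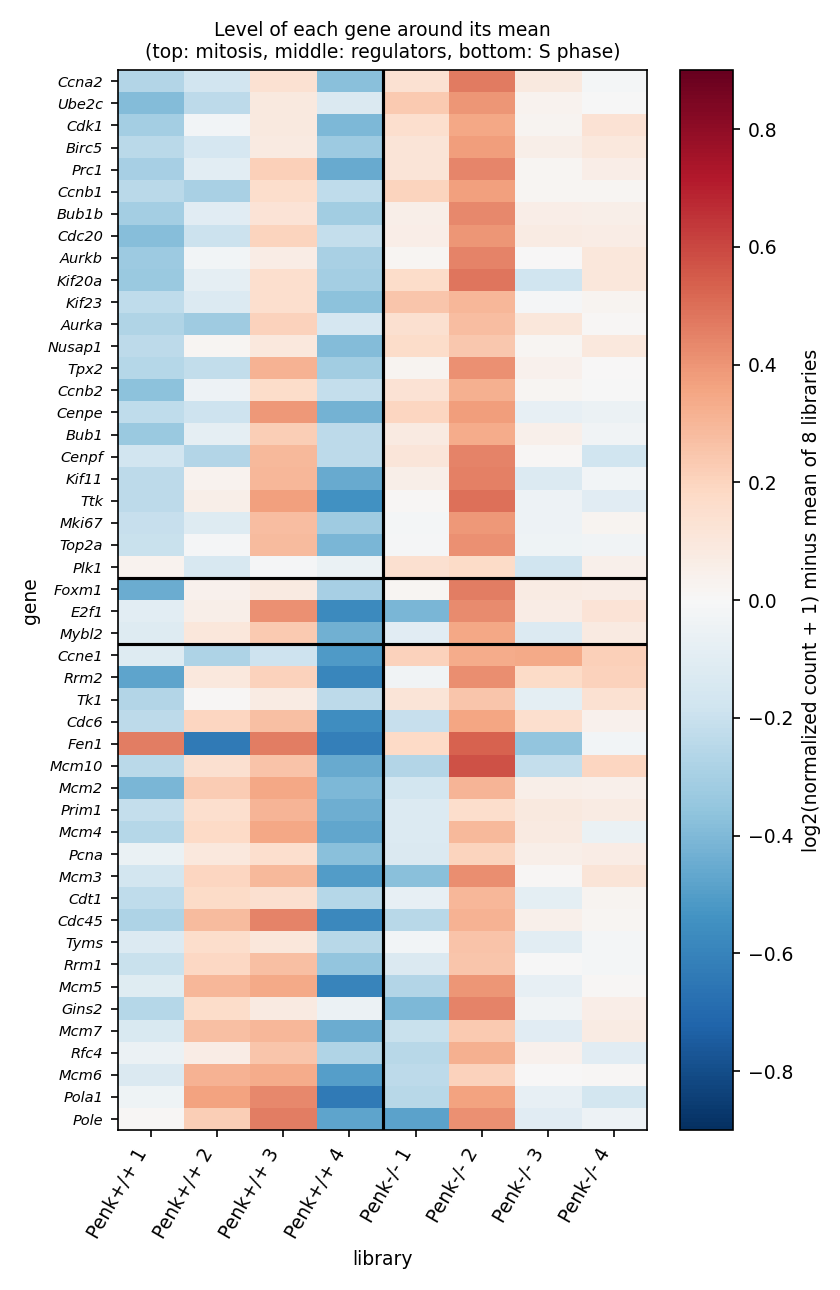
Level of each gene (rows) in each library (columns), as the log2 of the normalised count + 1 relative to its own 8-library mean (colour, red above and blue below). Penk-/- chimera 2 and penk+/+ chimera 3 are high for nearly all genes, and penk+/+ chimera 4 is low.

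To set S phase against mitosis within each mouse, a score was taken for each group of genes, the average of its log2 values after each gene was centred on its own 8-library mean. The S phase score was -0.16, 0.33, -0.0083 and 0.04 in penk-/- chimeras 1 to 4 and -0.16, 0.13, 0.26 and -0.43 in penk+/+ chimeras 1 to 4. The mitosis score was 0.11, 0.38, -0.0040 and 0.02 in penk-/- and -0.26, -0.12, 0.19 and -0.31 in penk+/+ chimeras. The genotypes overlapped in both scores. Between genotype means the mitosis score differed by 0.25 (mean 0.13, SD 0.18 in the penk-/- and mean -0.13, SD 0.23 in the penk+/+ group, n = 4 each) and the S phase score by 0.10 (mean 0.05, SD 0.21 and mean -0.05, SD 0.31). The S phase minus the mitosis score was -0.27, -0.05, -0.0043 and 0.02 in penk-/- and 0.10, 0.25, 0.07 and -0.12 in penk+/+ chimeras. Its mean was lower in penk-/- chimeras by 0.15, and the genotypes overlapped through penk+/+ chimera 4, which was at -0.12. No test was made of the scores, since the genes were chosen with results of these libraries known.

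**Figure D5:**
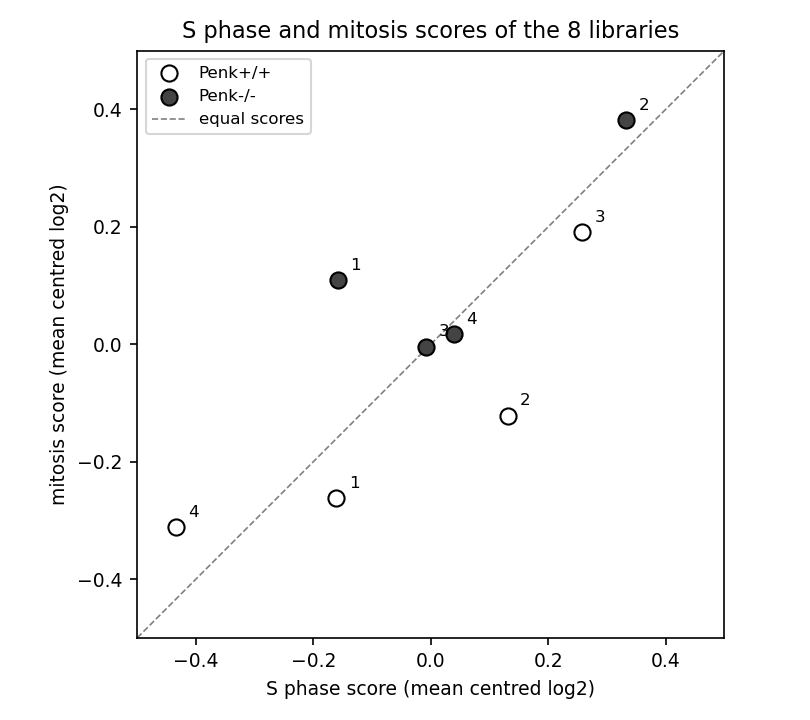
S phase score (x axis) and mitosis score (y axis) of the 8 libraries, both as mean centred log2 values, with penk+/+ chimeras open, penk-/- chimeras filled and a dashed line where the scores are equal. Penk+/+ chimeras 1, 2 and 3 lie below the line and chimera 4 above it, and penk-/- chimera 1 lies farthest above it.

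Without the 2 libraries with the most *Pbsn*, the median log2 fold change of the mitosis genes was 0.26 and all 23 stayed above 0, whereas that of the S phase genes was -0.03, with 9 of 22 above 0. The S phase median was also below 0 without penk-/- chimera 2 (-0.02) or without penk+/+ chimera 4 (-0.02). The mitosis median was between 0.18 and 0.38 when each mouse was left out in turn, and all 23 genes stayed above 0 in each case.

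Other genes of the cell cycle, listed by function, were read from the same test. None of them had an adjusted p below 0.05. Of 60 other mitosis genes, 57 had a fold change above 0 and 15 were higher in penk-/- chimeras at an unadjusted p below 0.05 (25%, against 4.3% of all genes tested), with 0 lower and a median log2 fold change of 0.23. Of 43 other S phase genes, 34 were above 0 and 5 were higher at that level (11.6%), with 0 lower and a median of 0.09. The number of other mitosis genes higher at that level also rested on single mice. It was 4 (6.67%, against 3.37% of all genes tested) without penk-/- chimera 2 and 5 (8.33%, against 3.40%) without penk+/+ chimera 1. It was 6 (10%, against 4.36%) without the 2 libraries with the most *Pbsn* and 40 (66.7%, against 4.15%) without penk+/+ chimera 3. The genotypes did not overlap for 5 of the other mitosis and 4 of the other S phase genes, each higher in penk-/- chimeras, against 2.89% of all genes tested. The smallest p among the former were those of *Ccnf* and *Gtse1*. *Ccnf*, which encodes cyclin F, was at 386, 519, 368 and 410 normalised counts in penk-/- and 266, 304, 314 and 280 in penk+/+ chimeras (log2 fold change 0.52 ± 0.12 SE, adjusted p = 0.339 with limma). *Gtse1*, a microtubule-associated protein of G2 and mitosis, was at 278, 322, 298 and 287 normalised counts in penk-/- and 184, 234, 245 and 190 in penk+/+ chimeras (log2 fold change 0.48 ± 0.12 SE, adjusted p = 0.339 with limma). In both, every penk-/- chimera was above every penk+/+ chimera.

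Among the other S phase genes, *Slbp*, which binds the stem-loop of histone mRNA, was at 1980, 2031, 1861 and 1907 normalised counts in penk-/- and 1711, 1735, 1684 and 1524 in penk+/+ chimeras (log2 fold change 0.23 ± 0.06 SE, adjusted p = 0.353 with limma). *Cdca7*, a chromatin factor expressed with S phase genes, was at 2535, 2437, 2413 and 2663 normalised counts in penk-/- and 1801, 2381, 2214 and 1949 in penk+/+ chimeras (log2 fold change 0.28 ± 0.09 SE, adjusted p = 0.408 with limma). The genotypes did not overlap for either gene.

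A last list holds G1 cyclins and their kinases, inhibitors, pocket proteins and E2F factors, and with them MuvB subunits and regulators of Cdk1 such as *Wee1*. Of 39 tested, 27 had a fold change above 0, and 8 were higher (20.5%, against 4.3% of all genes tested) and 3 lower in penk-/- chimeras at an unadjusted p below 0.05. The number higher was 3 (7.69%, against 3.37% of all genes tested) without penk-/- chimera 2 and 8 (20.5%, against 4.15%) without penk+/+ chimera 3. *Cdkn2a* was below the filter. The smallest p were those of *Ccnd2* and *Ccnd1*, which encode D cyclins, the sensors of growth signals in G1. *Ccnd2* was at 12000.3, 12814, 11429 and 11188 normalised counts in penk-/- and 9945, 8345, 8531 and 10028 in penk+/+ chimeras (log2 fold change 0.37 ± 0.08 SE, adjusted p = 0.339 with limma). *Ccnd1* was at 2126, 2269, 2175 and 2145 normalised counts in penk-/- and 1593, 1882, 1868 and 1821 in penk+/+ chimeras (log2 fold change 0.29 ± 0.07 SE, adjusted p = 0.339 with limma). Both were higher in every penk-/- than in every penk+/+ chimera. For the remaining D cyclin gene, *Ccnd3*, the genotypes overlapped (log2 fold change 0.08 ± 0.07 SE). *Myc*, an activator of growth, was at 897, 1039, 1172 and 886 normalised counts in penk-/- and 895, 800, 605 and 876 in penk+/+ chimeras (log2 fold change 0.34 ± 0.14 SE), and the genotypes overlapped only between 886 and 895. *Cdkn1a*, which encodes the inhibitor p21, was at 10142, 7901, 7268 and 9317 normalised counts in penk-/- and 9734, 7574, 8474 and 9109 in penk+/+ chimeras, with overlap over most of the range (log2 fold change -0.02 ± 0.12 SE). The 3 genes on the lower side (7.69% of the 39, near the 5.33% of all genes tested), named after their values were seen, were the antiproliferative factor *Btg1* (log2 fold change -0.33), the inhibitor *Cdkn1b* (-0.25) and the pocket protein *Rbl2* (-0.14).

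In whole tissue, more dividing cells and more RNA per dividing cell cannot be told apart. Markers of the cells that the tissue can hold were therefore summed for each library. The 12 crypt stem and progenitor markers had sums of 25310 to 27861 normalised counts in penk-/- and 24508 to 26416 in penk+/+ chimeras. The largest parts of these sums were *Prom1* (mean 7996 over the 8 libraries) and *Lrig1* (5340). The list had a median log2 fold change of 0.12, and 10 of 12 markers were above 0, against 51.1% of all genes tested. At an unadjusted p below 0.05, 2 of them (16.7%) were higher in penk-/- chimeras, against 4.3% of all genes tested. These 2 were *Ascl2* and *Sox9*, named after their values were seen. *Ascl2*, a transcription factor of intestinal stem cells, was at 184, 181, 211 and 190 normalised counts in penk-/- and 97.1, 147, 103 and 137 in penk+/+ chimeras, without overlap (log2 fold change 0.67 ± 0.16 SE, adjusted p = 0.339 with limma). *Sox9*, expressed at the crypt base, was at 1813, 2500, 2196 and 2377 normalised counts in penk-/- and 1725, 1742, 1920 and 1858 in penk+/+ chimeras (log2 fold change 0.29 ± 0.10 SE). *Lgr5*, the receptor that marks crypt stem cells, was at 468 ± 71.4 and 408 ± 95.9 (SD, n = 4 each).

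The 10 markers of the epithelium as a whole summed to between 473970 and 636441 normalised counts in penk-/- and between 580913 and 687738 in penk+/+ chimeras, with a median log2 fold change of -0.14 and 2 of 10 above 0. The 9 of surface colonocytes summed to between 194096 and 325518 and between 229204 and 345400 (median log2 fold change -0.25, 3 of 9 above 0). For macrophages (7 markers) the sums were 7159 to 10308 and 5344 to 9624, and for fibroblasts (7 markers) 52882 to 78065 and 42352 to 73534. All 7 markers were above 0 in each of these lists, and their median log2 fold changes, 0.28 and 0.23, were near that of the mitosis genes. The sums of smooth muscle markers (10 markers, 7 above 0, median 0.09) were 173369 to 291233 and 182808 to 281756. For B cells and follicles (9 markers, 7 above 0, median 0.32) they were 396 to 2582 and 464 to 2521, and for T cells (7 markers, 0 above 0, median -0.23) 189 to 305 and 195 to 389. Germinal centre B cells, the dividing cells of follicles, had sums of 1059 to 1188 and 954 to 1160 over 7 markers (4 of 6 tested above 0, median 0.06, *Mef2b* at 0 in a library and below the filter). Of the 6 tested, 1 (16.7%) was higher at an unadjusted p below 0.05, against 4.3% of all genes tested. It was *S1pr2*, a receptor that holds B cells in the germinal centre, named after its values were seen, with 256, 308, 311 and 384 normalised counts in penk-/- and 197, 230, 307 and 241 in penk+/+ chimeras (log2 fold change 0.37 ± 0.16 SE). Plasma cells had sums of 9204 to 20167 and 8428 to 17764 over 5 markers (2 of 4 tested above 0, median -0.07, *Mzb1* below the filter). Most of these sums was *Sdc1* (mean 8034 over the 8 libraries) and *Jchain* (5123). *Sdc1* ran from 6144 to 9308 normalised counts and *Jchain* from 1266 to 11521, and which cells gave the reads of *Sdc1* was not tested. Prostate and accessory glands had sums of 94 to 209863 and 54 to 217825 over 3 markers (2 of 3 above 0, median 0.03), with *Pbsn* and *Msmb* at 0 in a library. Outside the crypt and germinal centre lists, 0 markers were at an unadjusted p below 0.05 with limma. In every list the summed range of penk-/- chimeras overlapped that of penk+/+ chimeras, and the part of these cells in the values of the cell cycle genes was not tested.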

How the data were processed

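RNA-seq was performed on colon of 4 penk-/- and 4 penk+/+ chimeric mice. The authors checked reads with FastQC, aligned and counted them with STAR 2.7.8a on GRCm39, and normalised them with DESeq2 1.30.0. The deposited values are a normalised signal for every gene in every mouse (reads scaled by the size factor of the library), and neither raw counts nor logarithms. Counting by strand is not given in the sources used here. Gene names and exons were taken from GENCODE M39, which named 25776 of 26008 genes. Genes with a mean of at least 10 were tested with limma 3.58.1 (R 4.3.3, eBayes with trend, two-sided, Benjamini-Hochberg over all 19127 genes) on log2(value + 1), which understates fold changes of low genes. Replicates are separate mice. Exact permutation tests used the 70 assignments of 4 of 8 libraries. The test was checked on simulated data, with changes larger than those of the 48 genes and each gene drawn on its own. This check therefore does not cover small changes that genes share through the same mice. The 48 genes and all lists were chosen with earlier results of these data known. Genes given with the value of every mouse were those at an unadjusted p below 0.05 or without overlap, the 2 with the highest and the 2 with the lowest fold change of the S phase and mitosis groups, 6 usual markers and the regulators. From each list of other genes these were the 2 with the smallest p, and *Cdkn1a*, *Ccnd1* and *Myc*. *Ccne2* was added after its values were seen, besides those said to be so in the text. *Ccnd3* and *Lgr5*, given without the value of every mouse, were also added after their values were seen. *Tpx2*, which is among the genes flagged below, is given for every mouse too. Alternatives were quantile normalization, a block for the replicate number, no trend in limma, pseudocounts of 0.5 and 8, no filter or one at a mean of 50, and fits without the 2 libraries with the most *Pbsn* or without each mouse. Levels per kb used the merged exons of each gene. Scores and figures were made with Python 3.11.15, numpy 2.4.6, pandas 2.3.3, scipy 1.17.1 and matplotlib 3.10.9.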

Additional observations from a re-analysis of the deposited data

Results flagged for a closer look

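In each group of 4 mice, the gap between the highest or lowest mouse and its nearest neighbour was divided by the range of the group, and mice above Dixon's 95% limit for 4 values were noted. This was done for 122 groups, of which about 6.1 would pass by chance (1 in 20), and 11 passed. The values that passed are not independent, since the genes share the same mice. Chimera 2 stood above the other penk-/- chimeras for *Bub1b* (ratio 0.9813), *Cdc20* (0.9699), *Top2a* (0.9448), *Tpx2* (0.9345), *Foxm1* (0.8958), *Mki67* (0.8565) and *Ttk* (0.8355), and for the score of *Mki67* and *Top2a* together (0.9172). Chimera 3 stood above the other penk+/+ chimeras for *Tpx2* (0.8872), *Ccnb1* (0.8712) and *Cenpf* (0.8557). All of these are mitosis genes or their activator *Foxm1*. For *Tpx2*, which encodes an activator of Aurora kinase A on the spindle, the counts were 1028, 1349, 1037 and 1015 in penk-/- and 848, 866, 1259 and 816 in penk+/+ chimeras.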

How the results depend on the processing

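None of the 48 genes passed an adjusted p of 0.05 with limma under any of the 16 alternatives. Their number at an unadjusted p below 0.05, 10 as reported, was 6 without trend, 6 with quantile normalization, 4 without the 2 libraries with the most *Pbsn* and between 2 and 23 when each mouse was left out. The number of all genes with an adjusted p below 0.05, 0 as reported, was 1 with quantile normalization, 1 with the replicate block and between 0 and 6 with each mouse left out (6 without penk-/- chimera 1). The replicate numbers do not pair the mice (correlations of deviations 0.15, -0.04, -0.32 and -0.16 for numbers 1 to 4), and with the number as a block 13 of the 48 genes (27.1%) were higher at an unadjusted p below 0.05, while the share of all genes tested that were higher went from 4.3% to 7.08%. Count-based tests (edgeR and DESeq2) on reads recovered from the deposited values were planned and not run. With each mouse left out, the median of the S phase genes was between -0.02 and 0.18, that of the mitosis genes between 0.18 and 0.38, and the S phase minus mitosis difference between -0.22 and -0.09. No mitosis gene changed sign under any alternative, and 20 other genes did under at least 1. With quantile normalization these were *Mcm6* (0.0018) and *Rfc4* (-0.023). Without the 2 libraries with the most *Pbsn* they were *Cdc6* (-0.012), *Mcm3* (-0.056), *Mcm4* (-0.054), *Mcm5* (-0.13), *Mcm7* (-0.11), *Cdc45* (-0.12), *Prim1* (-0.043), *Pcna* (-0.018), *Rfc4* (-0.099), *Rrm1* (-0.049) and *E2f1* (-0.075). With each mouse left out, the log2 fold change ran from -0.12 to 0.22 for *Cdc45*, -0.0034 to 0.15 for *Cdt1*, -0.070 to 0.26 for *E2f1*, -0.019 to 0.35 for *Fen1*, -0.11 to 0.17 for *Gins2*, -0.023 to 0.26 for *Mcm10*, -0.066 to 0.23 for *Mcm3*, -0.042 to 0.23 for *Mcm4*, -0.16 to 0.15 for *Mcm5*, -0.18 to 0.10 for *Mcm6*, -0.14 to 0.11 for *Mcm7*, -0.023 to 0.20 for *Mybl2*, -0.016 to 0.16 for *Pcna*, -0.28 to 0.074 for *Pola1*, -0.28 to 0.036 for *Pole*, -0.031 to 0.22 for *Prim1*, -0.10 to 0.088 for *Rfc4*, -0.058 to 0.15 for *Rrm1* and -0.017 to 0.12 for *Tyms*. The cause of these changes was not tested. Depth limits the genes with few reads most, *Fen1* first, whose count may also lack reads shared with genes on the opposite strand.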
